A study of Mus musculus with 17 samples.

Results

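Cohesin is the ring-shaped protein complex that holds sister chromatids together, and the 10 genes described here encode its subunits in mouse germ cells together with the factor that opens the ring. They were chosen by name from the known composition of the complex: the meiosis-specific subunits *Rec8*, *Rad21l*, *Stag3* and *Smc1b*, the subunits of dividing body cells *Smc1a*, *Smc3*, *Rad21*, *Stag1* and *Stag2*, and *Wapal* (*Wapl* in newer annotation), which releases cohesin from chromatin. All 10 were found among the 23282 genes of the deposited table, and all 10 passed the filter on low values in every comparison.

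A cohesin ring consists of 2 SMC proteins, a kleisin that closes them, and a STAG protein bound to the kleisin. SMC3 is common to all rings. In meiosis, SMC1B largely stands in for SMC1A, REC8 and RAD21L are used beside the kleisin RAD21, and STAG3 is used beside STAG1 and STAG2. The meiotic rings form the core of the chromosome axis, on which the synaptonemal complex is built and homologous chromosomes pair, and REC8 keeps sister chromatids joined until the second meiotic division. In the mouse testis the axis assembles through the leptotene and zygotene stages.

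FACS gave 3 cell fractions of the testis, spermatogonia (SPG), spermatocytes in pre-leptotene (PreL) and spermatocytes in leptotene or zygotene (LZ), from wildtype (WT) mice and from mice in which *Nat10*, the gene of the enzyme that places N4-acetylcytidine on RNA, was deleted in germ cells (*Nat10*-SKO), all on the C57BL/6 background. The SKO carried 1 floxed and 1 deleted allele of *Nat10* and a *Stra8*-driven GFP-Cre, labelled Stra8-cre_Nat10_KO, which acts in male germ cells from the spermatogonial stage on. The series held 17 RNA-seq libraries, 3 of WT SPG, 3 of SKO SPG, 3 of WT PreL, 3 of SKO PreL, 2 of WT LZ and 3 of SKO LZ, and the study asked how loss of *Nat10* affects entry into and progress through meiosis. The labels do not say that the replicates came from separate animals, so the p-values measure the spread between these samples, and the age of the sorted mice is not given in the sources used here.

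The deposited values are reads multiplied by 1 calibration factor per library, set from added ERCC spike-in RNA, and the whole reads recovered from them numbered from 5812380 to 7609420 in SKO LZ and from 9885136 to 13820953 in the other groups. *Nat10* itself was lower in every SKO library than in every WT library of its stage, with log2 fold changes of -0.87 in SPG, -1.29 in PreL and -1.47 in LZ. The 4 germ cell markers were above 10 reads in every library, with a summed level of 2712 to 4554 RPM (reads scaled to a library total of 1000000). The RNA came from bulk sorted cells, so fewer cells of a type and less RNA per cell cannot be told apart. Marker lists of other cells moved with the genotype. The 6 spermatid markers summed to 555.7 to 946.6 RPM in WT LZ and to 6.93 to 8.95 RPM in SKO LZ, where *Acrv1* was at 0, and to 535 to 909.5 RPM in WT PreL and 7.99 to 13.0 RPM in SKO PreL. The 5 listed markers of late spermatocytes summed to 3118 to 5360 RPM in WT LZ and 109 to 123 RPM in SKO LZ. The 5 immediate early genes, which respond to dissociation, summed to 33.4 to 84.5 RPM in WT LZ and 161 to 234 RPM in SKO LZ.

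The 4 meiosis-specific genes lie on 4 chromosomes, and their promoters are shown because they are the members that set the meiotic complex apart. On GRCm38 *Rec8* spans 55618037 to 55625395 on chromosome 14 (plus strand), *Rad21l* 151645404 to 151668533 on chromosome 2 (minus strand), *Stag3* 138280240 to 138312393 on chromosome 5 (plus strand) and *Smc1b* 85064689 to 85131964 on chromosome 15 (minus strand). Each sequence below, from RefSeq on GRCm38.p6, runs 5′ to 3′ from 250 bases before the RefSeq start of transcription to 50 bases after it. The spans above are from GENCODE, whose gene starts can differ from those of RefSeq. The whole *Stag3* window, for example, lies within its GENCODE span. Capitals mark the E-box CACGTG, the single match found.
Rec8, chr14:55617916-55618215, plus strand: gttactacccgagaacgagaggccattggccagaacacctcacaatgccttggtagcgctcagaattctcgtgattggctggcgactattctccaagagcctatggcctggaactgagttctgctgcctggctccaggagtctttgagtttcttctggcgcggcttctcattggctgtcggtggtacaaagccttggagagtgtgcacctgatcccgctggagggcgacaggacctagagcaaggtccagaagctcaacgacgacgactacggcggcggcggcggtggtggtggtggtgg
Rad21l, chr2:151668484-151668783, minus strand: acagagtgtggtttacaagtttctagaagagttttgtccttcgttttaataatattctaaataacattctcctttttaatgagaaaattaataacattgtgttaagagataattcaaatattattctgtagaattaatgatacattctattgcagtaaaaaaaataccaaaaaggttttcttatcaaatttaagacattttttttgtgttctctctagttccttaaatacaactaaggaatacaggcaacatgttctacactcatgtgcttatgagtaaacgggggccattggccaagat
Stag3, chr5:138280259-138280558, plus strand: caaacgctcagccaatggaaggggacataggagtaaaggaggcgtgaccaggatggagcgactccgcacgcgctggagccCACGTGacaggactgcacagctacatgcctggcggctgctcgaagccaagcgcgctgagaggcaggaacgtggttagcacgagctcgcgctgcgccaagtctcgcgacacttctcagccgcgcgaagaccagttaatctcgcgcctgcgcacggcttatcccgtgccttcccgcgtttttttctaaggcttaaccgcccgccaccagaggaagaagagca
Smc1b, chr15:85131908-85132207, minus strand: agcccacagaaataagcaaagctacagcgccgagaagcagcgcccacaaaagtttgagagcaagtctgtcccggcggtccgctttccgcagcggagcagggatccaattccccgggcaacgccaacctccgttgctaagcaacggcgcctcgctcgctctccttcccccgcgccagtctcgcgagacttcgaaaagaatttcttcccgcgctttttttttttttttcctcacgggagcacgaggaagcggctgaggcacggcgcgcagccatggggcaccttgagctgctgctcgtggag

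The letters of 3 motifs were searched on both strands of all 32851 RefSeq promoters of this length. CACGTG reads the same on both strands and was held by 7.15% of them, the E2F-type site GGCGGGAA by 2.19%, and CNCCTCAG, the motif described for STRA8, by 7.94%. None of the 3 overlaps another in its letters. Of the 8 cohesin genes with an entry (*Rec8*, *Rad21l*, *Stag3*, *Smc1b*, *Smc1a*, *Smc3*, *Stag1* and *Wapal*), only *Stag3* held a match, a CACGTG that begins 170 bases before the RefSeq start site. The exact letters of the other motifs were found in none of the 8. Shorter or variant forms of these sites were not searched, so their absence is not shown. The *Rad21l* promoter differed from the other 3 in base composition, with 29.0% G and C and 2 CpG dinucleotides. *Rec8*, *Stag3* and *Smc1b* had 58.3% to 61.3% G and C and 18, 30 and 29 CpG dinucleotides. The median of all promoters was 52.7% and 7.

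The levels of the 10 genes were compared per length, as TPM, the recovered reads divided by the exonic length in GENCODE and scaled to a total of 1000000. *Smc1b* had the highest mean level in all 6 groups. In WT it stood at 515 ± 6.37 TPM in SPG (SD, n = 3), 905 ± 73.0 TPM in PreL (n = 3) and 564 ± 95.7 TPM in LZ (n = 2). In WT SPG it was followed by *Smc3* (307 TPM), *Rad21* (231 TPM), *Stag3* (176 TPM) and *Wapal* (166 TPM), and the last 2 overlapped. *Stag1* (54.3 TPM), *Smc1a* (40.8 TPM), *Rec8* (35.8 TPM) and *Stag2* (29.7 TPM) came next, where *Smc1a* overlapped *Rec8* and *Rec8* overlapped *Stag2*. *Rad21l* was the lowest, at 4.64 TPM. The WT SPG fraction held the 8 early meiosis markers at 2239 to 2489 RPM and the 7 spermatogonial markers at 854 to 903 RPM. Its 6 spermatid markers summed to 96.7 to 288 RPM. The part of meiotic and later cells in the SPG levels and shares was not tested. In WT LZ the lowest 4 were *Stag2* (16.0 TPM), *Smc1a* (15.1 TPM), *Rad21l* (14.6 TPM) and *Rec8* (12.3 TPM), and each overlapped its neighbour in this order. The order changed at its top in SKO LZ, where *Rad21* (mean 304, range 285 to 325 TPM, n = 3) overlapped *Smc1b* (mean 317, range 260.1 to 369 TPM, n = 3).

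**Figure D1:**
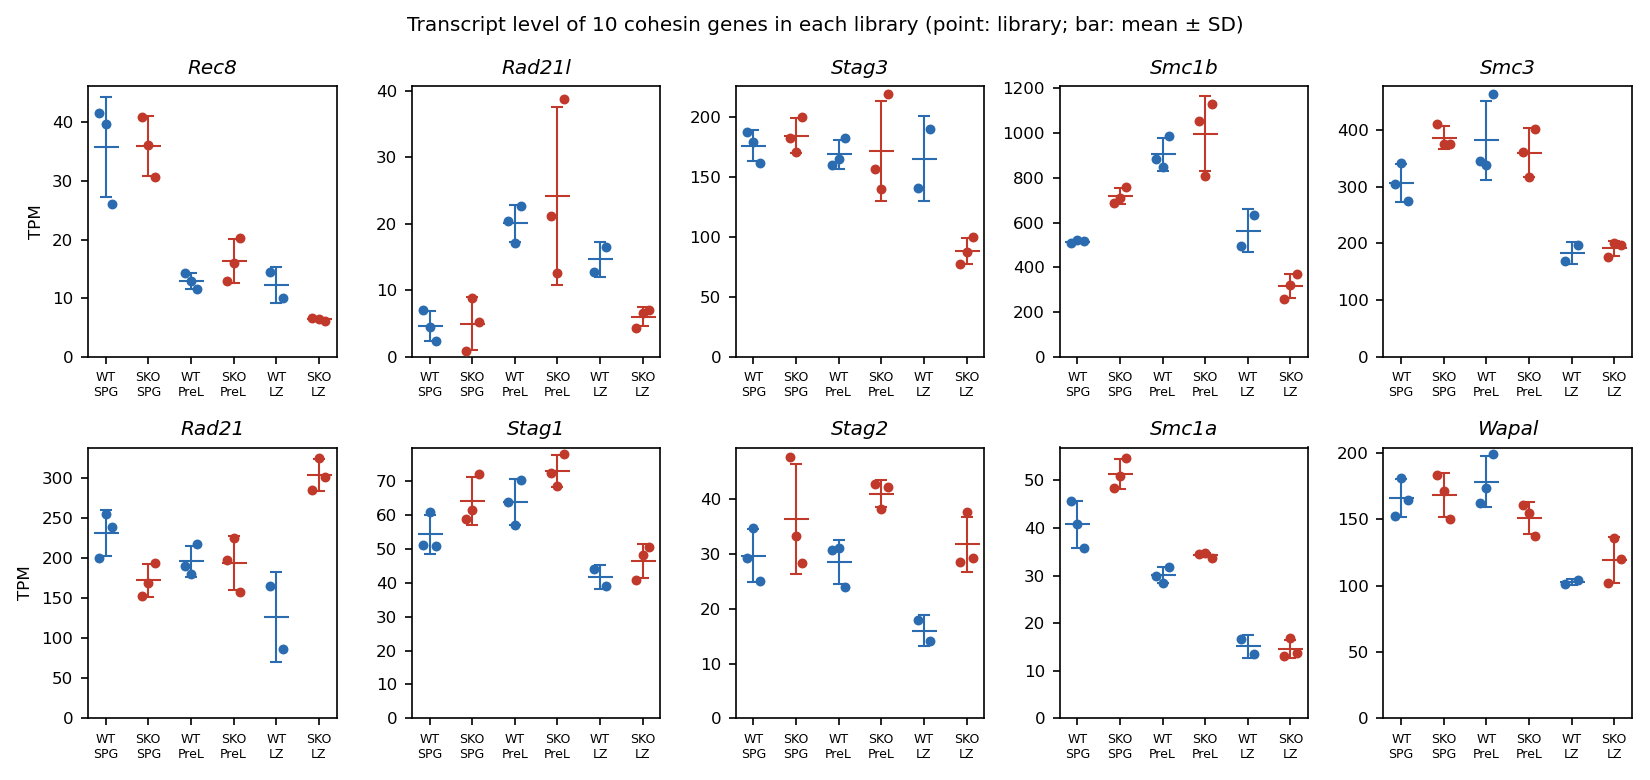
TPM of each cohesin gene in each of the 17 libraries (points), with the mean and SD of each group (bars), WT in blue and SKO in red. *Rad21* stood between 285 and 325 TPM in the 3 SKO LZ libraries and at 165 and 86.1 TPM in WT LZ.

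In SKO LZ, 2 of the 10 cohesin genes were higher than in WT LZ and passed both thresholds of the study, 0.05 for the adjusted p and 1 for the size of the log2 fold change. Genes that pass both are described as called. These were *Rad21* and *Stag2*, both subunits of the mitotic complex. The test was limma on log2(value + 10), after the ERCC-calibrated values of the libraries compared had been rescaled by median-of-ratios size factors, with Benjamini-Hochberg adjustment over 13724 genes. Of all genes tested in LZ, 13.4% were called higher and 25.8% were called lower. None of the 10 was called lower.

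*Rad21*, the kleisin of mitotic cohesin, had rescaled values of 10132 and 7094 in WT LZ and of 24834, 24562 and 24480 in SKO LZ. Every SKO library lay above both WT libraries, and the 3 SKO values differed little among themselves. The mean was 2.86-fold higher in SKO, which is 1.54 on the log2 scale, with a standard error (SE) of 0.19 and an adjusted p of 0.000461. *Stag2*, a STAG protein of mitotic cohesin encoded on the X chromosome, had rescaled values of 2159 and 2261 in WT LZ and of 4868, 5560 and 4655 in SKO LZ. Here too the groups did not overlap, and the mean was 2.28-fold higher in SKO. The log2 fold change of *Stag2* was 1.18, with an SE of 0.16 and an adjusted p of 0.0008. The exons of *Stag2* share 28 bases with *Gm37564* on the other strand, which the unstranded libraries cannot tell apart, and the exons of the other 9 genes overlap no annotated gene. Both calls held in all 15 alternatives tried, where *Rad21* ranged from 1.26 to 1.77 and *Stag2* from 1.05 to 1.24 on the log2 scale. The reads of SKO LZ were the shallowest of the series, and the markers of spermatids, late spermatocytes and dissociation moved with the same contrast. So did the Leydig markers, at 61.8 to 191 RPM in SKO LZ against 19.98 to 47.6 RPM in WT LZ, and the macrophage markers, at 4.13 to 22.4 against 0.94 to 2.34 RPM. Their part in these values was not tested.

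The 4 meiosis-specific genes were lower in SKO LZ in every library, yet none passed the threshold. *Stag3*, the meiotic STAG protein, had rescaled values of 11642 and 21186 in WT LZ and of 9131, 8904 and 10978 in SKO LZ (log2 fold change -0.71, SE 0.26, adjusted p = 0.0540). *Smc1b*, the meiotic SMC1 protein, had 29079 and 49789 in WT LZ and 21657, 23214 and 28741 in SKO LZ (log2 fold change -0.64, SE 0.26, adjusted p = 0.0733). For both genes the lower WT library lay just above the highest SKO library. *Rec8* had 613.5 and 576 in WT LZ and 400.0, 342 and 349 in SKO LZ (log2 fold change -0.70, SE 0.30, adjusted p = 0.0877). The 2 WT libraries were close to each other for this kleisin on the rescaled values, but less so in TPM (14.4 and 10.1). *Rad21l*, the other meiotic kleisin, had 307 and 533 in WT LZ and 149, 197 and 227 in SKO LZ (log2 fold change -1.07, SE 0.41, adjusted p = 0.0643). It rested on few reads, 105 and 135 in WT LZ and 13, 27 and 26 in SKO LZ.

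The 95% intervals of these differences ran from -1.39 to 0.0022 for *Rec8*, from -2.03 to -0.10 for *Rad21l*, from -1.31 to -0.10 for *Stag3* and from -1.25 to -0.03 for *Smc1b*. Without WT LZ replicate 2, which left a single WT library, the log2 fold change was -1.48 for *Rad21l*, -1.16 for *Stag3* and -1.06 for *Smc1b*. At the other end of the fits that left out 1 library, the values were -0.70 for *Rad21l*, -0.29 for *Stag3* and -0.28 for *Smc1b*. The 2 WT LZ libraries also differed in Sertoli cell markers (226 and 1144 RPM) and in spermatogonial markers (339 and 778 RPM), whose part in this was not tested. On the ERCC-calibrated values without rescaling, *Rad21l* was called lower (-1.19, adjusted p = 0.0455).

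The other 4 genes were not called in LZ. *Smc3*, the subunit of every cohesin ring, had a log2 fold change of 0.26 (95% interval -0.24 to 0.76) and overlapping groups. *Smc1a*, the SMC1 protein of mitotic rings, stood at 0.14 (-0.30 to 0.59), *Stag1*, a STAG protein of mitotic rings, at 0.35 (-0.02 to 0.72), and *Wapal*, the release factor, at 0.40 (-0.04 to 0.83). In all, 9 of the 10 genes had no overlap between the genotypes in LZ, 4 lower and 5 higher, where 39.8% of all genes tested were lower and 30.3% higher without overlap. The median log2 fold change was -0.70 over the meiosis-specific genes, 0.35 over the 5 subunits of the mitotic complex and -0.13 over all genes tested.

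The share that each paralogue took of its place in the ring was computed within each library, so that no scaling between libraries enters it. *Stag3* transcripts were 69.3% and 78.1% of the STAG transcripts in WT LZ, by TPM, and 52.7%, 50.3% and 55.5% in SKO LZ, a difference of means of -20.9 percentage points, SKO minus WT. *Rec8* made up 7.50% and 8.95% of the kleisin transcripts in WT LZ and 1.93% to 2.24% in SKO LZ. *Rad21l* made up 6.63% and 14.6% in WT LZ and 1.47% to 2.27% in SKO LZ. Each of these 3 shares was lower in every SKO LZ library than in both WT LZ libraries. *Smc1b* was 96.7% and 97.9% of the SMC1 transcripts in WT LZ and 95.5% ± 0.770 in SKO LZ (SD, n = 3), so that *Smc1a* was the minor SMC1 transcript in every LZ library of both genotypes. Two-sided exact permutation tests gave p = 0.1 for the *Stag3*, *Rec8* and *Rad21l* shares, the smallest p that 2 libraries against 3 allow, and p = 0.2 for *Smc1b*. The adjusted p over the 12 tests of 4 shares in 3 stages was 0.343 for each of them.

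In SPG and PreL the shares of the genotypes overlapped in every case. The *Stag3* share of WT SPG was 67.7% ± 2.34 and that of SKO SPG 64.6% ± 1.74 (SD over 3 libraries). In PreL it was 64.6% ± 1.63 in WT and 59.6% ± 4.27 in SKO (n = 3 each). The *Rec8* share was 13.3% ± 3.51 in WT SPG, 17.1% ± 3.82 in SKO SPG, 5.71% ± 0.985 in WT PreL and 7.08% ± 2.01 in SKO PreL. The *Rad21l* share was 1.74% ± 0.970 in WT SPG, 2.29% ± 1.86 in SKO SPG, 8.76% ± 0.530 in WT PreL and 10.7% ± 6.59 in SKO PreL. The log2 ratio of *Rec8* to *Rad21* gives the same order. It was -2.71 ± 0.47 in WT SPG, -3.92 ± 0.28 in WT PreL and -3.31 ± 0.30 in WT LZ (n = 2), against -5.56 ± 0.11 in SKO LZ (n = 3).

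In SPG none of the 10 cohesin genes was called between the genotypes, where 3.95% of all genes tested were called higher and 2.06% lower. By limma 3 of the 10 had an unadjusted p under 0.05, against 26% of all genes tested, and edgeR and DESeq2 also called 0. Of the 10, 1 was higher and 1 lower by the adjusted p alone, against 6.22% and 4.84% of all genes. *Smc1b* had rescaled values of 8446, 9180 and 9007 in WT SPG and of 11311, 12080 and 11939 in SKO SPG (log2 fold change 0.41, SE 0.10, adjusted p = 0.0214). *Rad21* had 3471, 4700 and 4356 in WT SPG and 2637, 3014 and 3195 in SKO SPG (log2 fold change -0.49, SE 0.14, adjusted p = 0.0345). Neither gene overlapped between the genotypes, and the difference of each lay well inside the fold threshold. The ERCC scale left *Smc1b* at 0.14 (adjusted p = 0.651). The other 8 had log2 fold changes from -0.14 (*Rad21l*, 95% interval -1.46 to 1.18) to 0.27 (*Smc3*, 0.02 to 0.53). Leydig, macrophage and immediate early gene markers were higher in SKO SPG, at 53.1 to 168, 41.3 to 102 and 184 to 370.5 RPM, than in WT SPG, at 5.52 to 15.5, 3.97 to 12.2 and 18.2 to 22.01 RPM. The lists of peritubular myoid cells (33.7 to 64.5 against 0.78 to 4.32 RPM), Sertoli cells (38.9 to 87.2 against 20.02 to 31.7 RPM), spermatogonia (1109 to 1185 against 854 to 903 RPM), early meiosis (3411 to 3637 against 2239 to 2489 RPM) and germ cells (3225 to 3546 against 2712 to 3177 RPM) were also higher in SKO SPG without overlap. These are sums over each list. Of the germ cell markers, *Ddx4* (387 to 421 against 424 to 443 RPM) and *Dnd1* (9.0 to 10.4 against 16.3 to 19.6 RPM) were lower in SKO SPG. *Dazl* and *Tex101* overlapped between the genotypes. Spermatid markers were lower in SKO SPG, at 3.64 to 8.06 RPM against 96.7 to 288 RPM. Their part in these values was not tested.

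In PreL none of the 10 was called, where 5.32% of all genes tested were called higher and 5.83% lower. By limma 2 of the 10 had an unadjusted p under 0.05, against 33.7% of all genes, and edgeR and DESeq2 also called 0. These were *Stag2* and *Wapal*, the 2 genes whose genotypes did not overlap, 1 higher and 1 lower, where 17.4% and 20% of all genes did not overlap in these directions. *Stag2* had rescaled values of 1597, 1731 and 1317 in WT PreL and of 2150, 1833 and 2236 in SKO PreL (log2 fold change 0.42, SE 0.15, adjusted p = 0.0783). *Wapal* had 6757, 7746 and 8767 in WT PreL and 6468, 5938 and 5844 in SKO PreL (log2 fold change -0.34, SE 0.13, adjusted p = 0.0960). The 4 meiosis-specific genes had log2 fold changes of 0.21 (*Rec8*), 0.03 (*Rad21l*), -0.11 (*Stag3*) and 0.02 (*Smc1b*), with 95% intervals of -0.35 to 0.77, -0.85 to 0.91, -0.53 to 0.32 and -0.37 to 0.41. *Rad21l* varied most among the SKO PreL libraries, from 122 to 412 on the rescaled scale. The ERCC scale moved the median of all genes by 0.69 in this comparison, and on it *Stag2* was called higher (1.14) and none of the 10 was below 0. Leydig markers were at 37.3 to 364 RPM in SKO PreL against 6.25 to 15.2 RPM in WT PreL, immediate early genes at 65.5 to 242 against 34.7 to 47.6 RPM, early meiosis markers at 5186 to 7202 against 3527 to 4332 RPM, and late spermatocyte markers at 59.9 to 81.5 against 298 to 1044 RPM. The germ cell (3814 to 4554 against 2779 to 3311 RPM), spermatogonial (706 to 815 against 630.2 to 671 RPM), peritubular myoid (6.04 to 13.0 against 1.99 to 5.5 RPM) and endothelial lists (2.93 to 4.62 against 0.19 to 1.12 RPM) were also higher in SKO PreL without overlap. Among the early meiosis markers *Stra8* went the other way, at 356 to 477 RPM in SKO PreL against 598 to 691 RPM in WT PreL. *Sycp1*, *Sycp3*, *Dmc1* and *Hormad1* were higher in SKO PreL without overlap, and *Spo11*, *Mei1* and *Prdm9* overlapped. The part of all these markers in the PreL values was not tested.

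An interaction term over all 17 libraries tested whether the genotype effect in LZ was unlike that in PreL. Of the 10 genes, 3 passed an adjusted p of 0.05, all towards a higher value in LZ, where 15.1% of all genes tested did so and 23.1% passed in the other direction. The interaction was 1.69 on the log2 scale for *Rad21* (SE 0.23, adjusted p = 1.23e-05), 0.77 for *Stag2* (SE 0.28, adjusted p = 0.0324) and 0.76 for *Wapal* (SE 0.21, adjusted p = 0.00894). On the ERCC scale *Rad21* kept its direction, at 0.82 (adjusted p = 0.0381), whereas *Stag2* and *Wapal* turned to -0.09 and -0.11. On that scale the 4 meiosis-specific genes passed, between -1.90 (*Rad21l*) and -1.45 (*Stag3*). With rescaled values they stood at -0.87 (*Rec8*), -1.03 (*Rad21l*), -0.58 (*Stag3*) and -0.64 (*Smc1b*), with adjusted p-values of 0.0708, 0.341, 0.117 and 0.0624. The call of *Stag2* was lost on leaving out any of WT PreL replicates 1 and 2, SKO PreL replicate 2, WT LZ replicates 2 and 3 and SKO LZ replicate 2, with an adjusted p of up to 0.0782, and with no filter on low values (0.0517). The call of *Wapal* was lost without WT LZ replicate 2 (0.54, adjusted p = 0.0663).

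From SPG to PreL in WT, the 2 meiotic kleisins moved in opposite directions. *Rec8* had rescaled values of 562, 577.5 and 372 in SPG and of 199.9, 191 and 170 in PreL, and it fell by 1.36 on the log2 scale (SE 0.24, adjusted p = 0.0122). *Rad21l* had 53.2, 37.2 and 19.5 in SPG and 162, 143 and 189 in PreL, and it rose by 1.96 (SE 0.40, adjusted p = 0.0184). Neither kleisin overlapped between the stages. They were the only members called, where 1.21% of all genes tested were called lower and 2.54% higher. The call of *Rad21l* was lost when no genes were filtered out (adjusted p = 0.0698) and on leaving out WT SPG replicate 3 (0.0720), WT PreL replicate 2 (0.0575) or WT PreL replicate 4 (0.0501). *Smc1b* passed the adjusted p alone, as did 4.27% of all genes in that direction, called genes included, from 9463, 10460 and 10162 in SPG to 16976, 17212 and 20029 in PreL (log2 fold change 0.85, SE 0.12, adjusted p = 0.00473). The other 7 stood between -0.39 (*Smc1a*) and 0.34 (*Smc3*). Marker lists moved with this step too. Spermatid markers were at 96.7 to 288 RPM in WT SPG and 535 to 909.5 RPM in WT PreL. Early meiosis markers went from 2239 to 2489 RPM up to 3527 to 4332 RPM. Spermatogonial markers went from 854 to 903 RPM down to 630.2 to 671 RPM. Late spermatocyte markers went from 121 to 201 RPM up to 298 to 1044 RPM. Sertoli markers (20.02 to 31.7 RPM, then 56.2 to 64.3 RPM) and immediate early genes (18.2 to 22.01 RPM, then 34.7 to 47.6 RPM) rose too. Their part in these values was not tested.

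In SKO the same step had *Rec8* at 641, 583.5 and 465 in SPG and at 205, 241.2 and 343.5 in PreL. It fell by 1.09 (SE 0.25, adjusted p = 0.0358) and was the only member called, where 0.955% of all genes tested were called lower and 1.63% higher. The call was lost on leaving out any library but SKO PreL replicate 3, with an adjusted p of up to 0.154, and on the ERCC scale, where the difference was -0.08. *Rad21l* had 7.80, 81.4 and 44.2 in SKO SPG and 190, 108 and 371 in SKO PreL (log2 fold change 2.22, SE 0.63, adjusted p = 0.0684). Its 3 SPG libraries spread more widely than those of WT, and replicate 1 held 5 reads. *Smc1a* passed the adjusted p alone (log2 fold change -0.55, adjusted p = 0.0385), as did 2.65% of all genes in that direction, called genes included, and *Smc1b* had 0.49 (adjusted p = 0.0999). The ERCC scale moved the median of all genes by 0.98 in this step and called 5 of the 10 genes, all higher. Early meiosis markers were at 3411 to 3637 RPM in SKO SPG and 5186 to 7202 RPM in SKO PreL. Spermatogonial markers were at 1109 to 1185 and 706 to 815 RPM. Germ cell markers were at 3225 to 3546 and 3814 to 4554 RPM, and peritubular myoid markers at 33.7 to 64.5 and 6.04 to 13.0 RPM. Their part in this step was not tested.

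From PreL to LZ in WT, all 10 genes had a log2 fold change below 0 on the rescaled values, and 7 passed the adjusted p, as did 14.2% of all genes in that direction. The genes called were *Smc1a* and *Smc3*, where 7.8% of all genes tested were called lower and 18.8% higher. *Smc1a* had rescaled values of 1389, 1415 and 1589 in PreL and of 701 and 723 in LZ (log2 fold change -1.03, SE 0.23, adjusted p = 0.00943). *Smc3* had 15348, 16117 and 22191 in PreL and 6808 and 10168 in LZ (log2 fold change -1.08, SE 0.24, adjusted p = 0.0101). Neither gene overlapped between the stages. Of the meiosis-specific genes, *Smc1b* passed the adjusted p (-0.72, adjusted p = 0.0428), and *Rec8* (-0.13), *Rad21l* (-0.47) and *Stag3* (-0.08) did not. Late spermatocyte markers were at 298 to 1044 RPM in WT PreL and 3118 to 5360 RPM in WT LZ. Sertoli markers were at 56.2 to 64.3 and 226 to 1144 RPM, and macrophage markers at 5.51 to 13.9 and 0.94 to 2.34 RPM. Leydig markers were at 6.25 to 15.2 and 19.98 to 47.6 RPM, and peritubular myoid markers at 1.99 to 5.5 and 7.17 to 15.4 RPM. Their part in this step was not tested. The call of *Smc3* was lost without WT PreL replicate 4 (-0.97) or WT LZ replicate 2 (-0.80, adjusted p = 0.0709), and 4 genes were called without WT LZ replicate 3.

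The direction of this step depends on the scaling. The calibration factors rose from between 1.24 and 1.62 in WT PreL to between 3.25 and 4 in WT LZ, and on the ERCC-calibrated values the median of all genes moved by 1.73. On that scale all 10 genes were higher in LZ, from 0.75 (*Smc3*) to 1.75 (*Stag3*), and 7 were called higher. All 10 lay below the median of all genes on either scale, which was 0.13 with rescaled and 1.86 with calibrated values. In deposited units, *Smc1b* went from 18858 ± 2651 in WT PreL (SD, n = 3) to 41414 ± 12822 in WT LZ (n = 2), and *Stag3* from 4991 ± 805 to 17216 ± 6031.

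**Figure D2:**
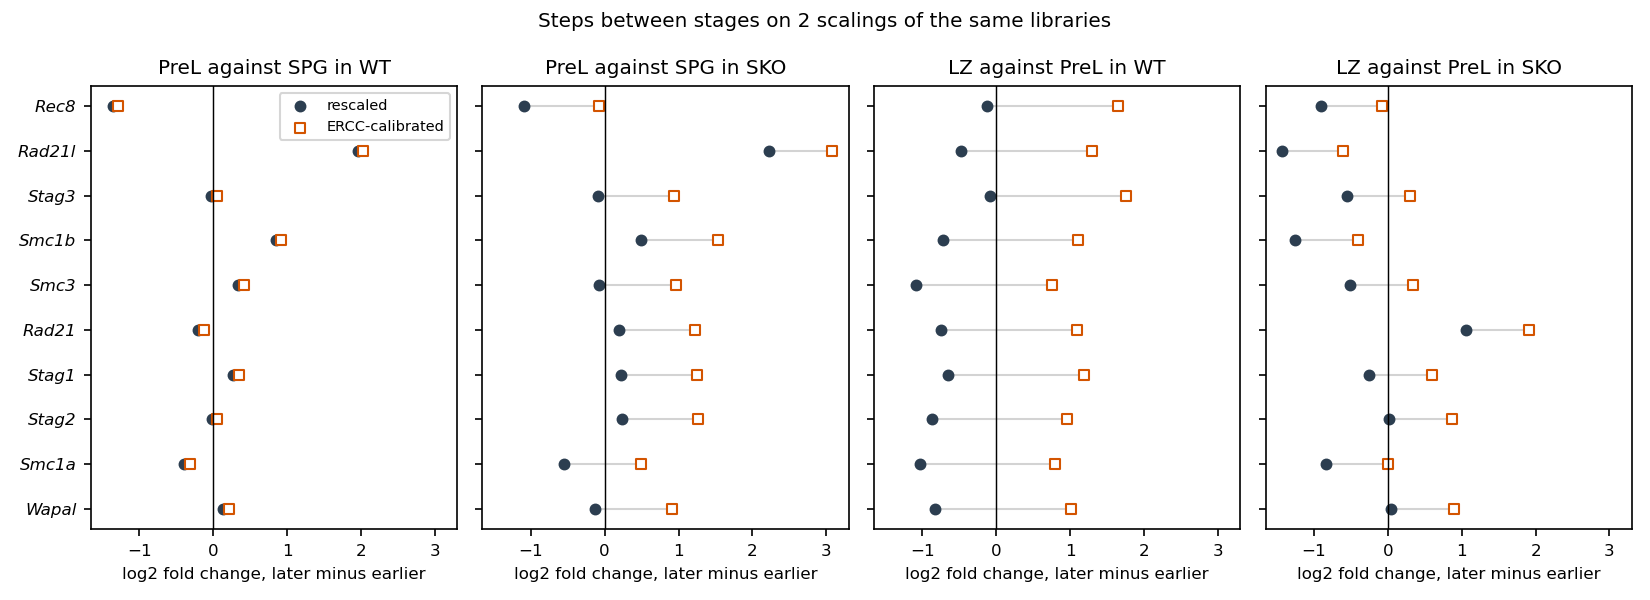
Log2 fold change of each cohesin gene between stages in WT and in SKO, on rescaled values (filled circles) and on the ERCC-calibrated values as deposited (open squares). From PreL to LZ in WT the rescaled values lay between -1.08 and -0.08 and the calibrated values between 0.75 and 1.75.

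From PreL to LZ in SKO, *Rad21* rose while the meiosis-specific *Smc1b* and *Rad21l* fell. *Rad21* had rescaled values of 8563, 9140 and 7653 in PreL and of 17643, 17653 and 17441 in LZ (log2 fold change 1.06, SE 0.11, adjusted p = 0.000207). *Smc1b* had 43754, 31410 and 52398 in PreL and 15386, 16684 and 20477 in LZ, and it fell by 1.26 (SE 0.20, adjusted p = 0.00166). *Rad21l* had 360, 202 and 738.5 in PreL and 106, 141 and 162 in LZ, and it fell by 1.43 (SE 0.43, adjusted p = 0.0308). None of these 3 overlapped between the stages, and they were the members called, where 10.6% of all genes tested were called higher and 6.93% lower. *Rec8* (-0.90), *Smc1a* (-0.84) and *Smc3* (-0.51) passed the adjusted p alone, so that 5 of the 10 passed it towards lower values, against 19.1% of all genes. *Stag3* (-0.55), *Stag1* (-0.26), *Stag2* (0.02) and *Wapal* (0.05) did not pass. The call of *Rad21l* was lost on leaving out any SKO LZ library or SKO PreL replicates 1 or 3, and that of *Rad21* without SKO PreL replicate 3 (0.98), so that 1 gene was called without that library. On the ERCC scale, which moved the median of all genes by 0.82, *Rad21* alone was called, *Smc1b* stood at -0.41 and *Rad21l* at -0.61. Early meiosis markers were at 5186 to 7202 RPM in SKO PreL and 2956 to 4471 RPM in SKO LZ. Late spermatocyte markers were at 59.9 to 81.5 and 109 to 123 RPM. Germ cell markers were at 3814 to 4554 and 2769 to 3405 RPM, and endothelial markers at 2.93 to 4.62 and 1.55 to 2.31 RPM. Their part in this step was not tested.

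The other genes of the cohesin cycle were read from a list of 14 partners, of which 13 passed the filter (*Hdac8*, the deacetylase of SMC3, did not). In LZ 4 were called higher in SKO and 2 lower, where 13.4% of all genes were called higher and 25.8% lower. The shugoshins *Sgol1* and *Sgol2*, which protect centromeric cohesin from cleavage, rose by 2.05 (SE 0.19, adjusted p = 0.000119) and 2.70 (SE 0.25, adjusted p = 0.000139) on the log2 scale. *Sgol2* had rescaled values of 9574 and 12341 in WT LZ and of 55442 to 93152 in SKO LZ, without overlap. *Mau2*, a subunit of the cohesin loader, rose by 1.20 and *Ctcfl*, the germ line paralogue of the boundary factor *Ctcf*, by 1.41. The other loader subunit, *Nipbl*, fell by 1.81 (SE 0.31, adjusted p = 0.00223), from 10348 and 21158 in WT LZ to between 3723 and 5214 in SKO LZ. *Pds5a*, a regulator bound to the kleisin, fell by 1.66 (SE 0.27, adjusted p = 0.00189). The median of the 13 was 0.53, against -0.13 over all genes tested.

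In SPG 1 partner of 13 was called lower and 1 higher between the genotypes, and the same counts held in PreL. Of all genes tested, 2.06% were called lower and 3.95% higher in SPG, and 5.83% and 5.32% in PreL. The genes called were the same in both stages. *Cdca5*, which encodes sororin, the factor that stabilises cohesin after replication, fell in both, from 653.5 ± 71.5 in WT to 236 ± 98.3 in SKO in SPG (n = 3 each, adjusted p = 0.00435) and by 1.06 on the log2 scale in PreL. *Ctcfl* rose by 1.05 in SPG and by 1.06 in PreL. From SPG to PreL 1 of the 13 partners was called higher and 1 lower in each genotype. Of all genes tested, 2.54% were called higher and 1.21% lower in WT, and 1.63% and 0.955% in SKO. *Esco2*, an acetyltransferase of SMC3, rose by 1.43 in WT and by 1.61 in SKO over this step. *Ctcfl* fell, with a mean in PreL of 0.337 times that in SPG in WT and 0.343 times in SKO. The *Sgol2* difference between the genotype effects of LZ and PreL was 2.79 (SE 0.31, adjusted p = 8.89e-07), and 7 of the 13 partners passed this interaction higher and 2 lower, against 15.1% and 23.1% of all genes.

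Of the 14 genes of the condensin and SMC5/6 complexes, which share the SMC fold with cohesin, all were tested. In LZ 1 was called lower in SKO, *Nsmce1* of SMC5/6 (-1.77), and 0 higher, against 25.8% and 13.4% of all genes, with a median of -0.33 against -0.13 over all genes. In SPG 1 was called lower, *Ncaph* of condensin I (-1.11), against 2.06% of all genes, and in PreL 0 were called. Of the 4 axis genes, *Hormad2* was called higher in SKO in SPG (1.13), against 3.95% of all genes, and lower in LZ (-1.32), against 25.8%. *Sycp3*, a component of the axial element, was called higher in PreL (1.13), against 5.32% of all genes. The interaction was passed by 3 of the 4 towards a lower value in LZ, against 23.1% of all genes. *Sycp2* and *Hormad1* were called in none of the 3 stages. By the adjusted p alone, all 4 axis genes passed higher in SKO in SPG, against 6.22% of all genes. In PreL 2 of the 4 passed higher, against 7.87%, and in LZ 2 passed lower, against 31.1%, called genes included.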

How the data were processed

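RNA-seq libraries (Smart-seq2, polyadenylated RNA, not stranded) were mapped by the authors with TopHat2 2.1.1 (processing notes) to mm10, the build of the study's methods, where the notes list mm9 and mm10, and uniquely mapped reads per gene were counted with HTSeq 0.11.2. The deposited values are signal: counts multiplied by 1 factor per library set from the ERCC spike-in and cell input. Dividing each library by its smallest value gave whole reads for all values (tolerance 0.01). Depth was 5812380 to 13820953 reads, and PCR reads without molecular identifiers are not independent molecules.

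Each comparison rescaled its own libraries by median-of-ratios size factors and kept genes averaging 10 reads or more, and log2(value + 10), which understates the change of low genes, was tested with limma 3.58.1 (R 4.3.3, mean-variance trend). edgeR 4.0.16 and DESeq2 1.42.0 were run on the recovered reads. The other alternatives were ERCC-calibrated values, TMM, pseudocounts of 1 and 50, no filter or 50 reads, no fold threshold, 1 fit of all libraries, a replicate block and each library left out. Shares with the longest coding transcript were added after seeing the data. GENCODE M21 (GRCm38) matched 20864 symbols directly, 1919 by older symbols, and left 499 unmatched. On simulated data with 200 changed genes the LZ design recovered 191, with 4 false calls over 13597 genes. The simulation gave all genes the same spread and planted only changes beyond the fold threshold. Recovery was counted by the adjusted p alone. It therefore does not give the power for smaller changes or for genes with a wider spread.

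Genes named are the 10 members, *Nat10*, fixed lists of partners, SMC complexes and axis genes, and the 3 genes most correlated with each meiosis-specific member. The members and lists were chosen with earlier results of these data known.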

Additional observations from a re-analysis of the deposited data

Results flagged for a closer look

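The genotype effect on 3 cohesin genes differed between LZ and PreL by the interaction term of limma. The difference, LZ minus PreL on the log2 scale, was 1.69 for *Rad21* (adjusted p = 1.23e-05), which had a fold change of -0.14 in PreL and of 1.54 in LZ. It was 0.77 for *Stag2* (adjusted p = 0.0324), which stood at 0.42 in PreL and at 1.18 in LZ. It was 0.76 for *Wapal* (adjusted p = 0.00894), which stood at -0.34 in PreL and at 0.40 in LZ. Only *Rad21* kept its direction on the ERCC-calibrated values.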

How the results depend on the processing

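Over 1289 fits of single genes under the alternatives, 1146 gave the direction and side of the threshold of the values reported above, 29 passed the threshold where the reported value had not, 36 no longer passed, and 78 had the other sign, the cause of which was not tested. TMM scaling, a pseudocount of 1, edgeR and a filter of 50 reads left all 8 counts of called cohesin genes within 1.5 times. The 2 WT LZ libraries and the shallow SKO LZ libraries limit the precision in LZ, and reads of 5 to 16 limit that of *Rad21l* in single SPG libraries. Shares of paralogues by the longest coding transcript moved by more than 1 SD in 14 of 24 group values, and the *Stag3* share then stood at 63.9% to 73.5% in WT LZ and at 45.4% to 50.04% in SKO LZ.

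Without a fold threshold, 2 cohesin genes passed between the genotypes in SPG, 7 from PreL to LZ in WT, 2 from SPG to PreL in SKO and 6 from PreL to LZ in SKO. On the ERCC-calibrated values, 1 was called between the genotypes in PreL, 7 from PreL to LZ in WT, 5 from SPG to PreL in SKO, 1 from PreL to LZ in SKO, and 6 passed the interaction. A pseudocount of 50 left 1 from PreL to LZ in WT and 0 from SPG to PreL in SKO. With no filter, 1 was called from SPG to PreL in WT and 0 in SKO. DESeq2 called 2 from SPG to PreL in SKO. In 1 fit of all libraries, 0 were called from PreL to LZ in WT and 2 from SPG to PreL in SKO. Leaving out 1 library gave 0 to 0 calls between the genotypes in SPG and in PreL, 2 to 5 in LZ, 1 to 2 from SPG to PreL in WT, 2 to 4 from PreL to LZ in WT, 0 to 1 from SPG to PreL in SKO, 1 to 3 from PreL to LZ in SKO, and 2 to 4 for the interaction.

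On the ERCC-calibrated values the median log2 difference of all genes moved by -0.25 between the genotypes in SPG, 0.69 in PreL and -0.12 in LZ, in WT by 0.07 from SPG to PreL and 1.73 from PreL to LZ, in SKO by 0.98 and 0.82 over these steps, with -0.81 for the interaction. Lower genes were then 59.2% of all calls between the genotypes in SPG (34.3% with rescaled values), 14.5% in PreL (52.3%), 0.136% from PreL to LZ in WT (29.3%), 0.528% from SPG to PreL in SKO (36.9%), 3.33% from PreL to LZ in SKO (39.6%) and 89.8% for the interaction (60.5%).

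Signs turned on the ERCC-calibrated values as follows. Between the genotypes in SPG the log2 values were -0.0023 for *Smc1a*, -0.0010 for *Smc3*, -0.099 for *Stag1* and -0.066 for *Stag2*. In PreL they were 0.62 for *Stag3*, 0.54 for *Smc3*, 0.59 for *Rad21* and 0.38 for *Wapal*. From SPG to PreL in WT they were 0.052 for *Stag3* and 0.059 for *Stag2*, and in SKO 0.94 for *Stag3*, 0.49 for *Smc1a*, 0.96 for *Smc3* and 0.91 for *Wapal*. From PreL to LZ in WT they were 1.65 for *Rec8*, 1.29 for *Rad21l*, 1.75 for *Stag3*, 1.11 for *Smc1b*, 0.79 for *Smc1a*, 0.75 for *Smc3*, 1.09 for *Rad21*, 1.18 for *Stag1*, 0.96 for *Stag2* and 1.01 for *Wapal*, and in SKO 0.30 for *Stag3*, 0.0039 for *Smc1a*, 0.34 for *Smc3* and 0.59 for *Stag1*. The interaction was -0.79 for *Smc1a*, -0.41 for *Smc3*, -0.59 for *Stag1*, -0.090 for *Stag2* and -0.11 for *Wapal*.

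In 1 fit of all libraries, *Stag3* turned to 0.014 between the genotypes in SPG, 0.012 from SPG to PreL in WT and 0.062 from PreL to LZ in WT, *Stag2* to 0.019 from SPG to PreL in WT and *Rec8* to 0.011 from PreL to LZ in WT. *Rad21l* between the genotypes in SPG turned to 0.062 by DESeq2 and 0.048 by edgeR. Leaving out 1 library gave ranges across 0 between the genotypes in SPG for *Rec8* (-0.25 to 0.093), *Rad21l* (-0.63 to 0.47), *Stag3* (-0.060 to 0.029), *Wapal* (-0.14 to 0.059) and *Stag2* (-0.0077 to 0.39), in PreL for *Smc1b* (-0.11 to 0.21), *Rad21l* (-0.40 to 0.44) and *Stag3* (-0.33 to 0.066), and in LZ for *Smc3* (-0.089 to 0.56). From SPG to PreL the same held in WT for *Stag3* (-0.089 to 0.043) and *Stag2* (-0.12 to 0.12) and in SKO for *Stag3* (-0.33 to 0.073) and *Smc3* (-0.21 to 0.047). From PreL to LZ it held in WT for *Stag3* (-0.48 to 0.31) and in SKO for *Stag2* (-0.094 to 0.10) and *Wapal* (-0.0055 to 0.11).

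Pairing of the samples by replicate number was not evident, and groups of 2 or 3 libraries cannot exclude it. Between the genotypes in LZ the same-numbered libraries correlated at 0.10 and 0.09. The correlation of deviations between same-numbered libraries lay between -0.19 and 0.13 over all comparisons, and in the comparison with 3 such pairs, PreL and LZ in SKO, it was -0.10, 0.13 and 0.06, and not every library correlated best with its own number. With a replicate block, from SPG to PreL 1 cohesin gene was called in WT and 0 in SKO. The other 5 counts that could be fitted were within 1.5 times. LZ and PreL of WT share 1 number, so the block could not be fitted there. Under the replicate block the log2 values turned to 0.20 for *Rec8* and 0.14 for *Wapal* between the genotypes in SPG, to -0.055 for *Rec8*, -0.31 for *Rad21l*, -0.038 for *Smc1b* and 0.056 for *Rad21* in PreL, and to 0.11 for *Stag3* and 0.0017 for *Smc3* from SPG to PreL in SKO.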

Other observations

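Over the 17 libraries, the 3 genes whose log2 rescaled values followed each meiosis-specific member most closely were ranked by Pearson's r among 8665 genes averaging 100 reads or more, or 8666 for *Rad21l*, which is itself below that mean. The points share stage, genotype and depth, and r is given as a description. They were *Parp2* (0.93), *Atp5b* (0.93) and *Ublcp1* (0.92) for *Rec8*, and *Cux1* (0.92), *Ppp4r4* (0.92) and *Pomt2* (0.89) for *Rad21l*. They were *Ppp2r5e* (0.93), *Gtf2a2* (0.92) and *Csnk2a2* (0.90) for *Stag3*, and *Zcwpw1* (0.94), *4930519F09Rik* (0.94) and *Acer3* (0.94) for *Smc1b*.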
